A study of Sus scrofa with 8 samples.

Results

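Interleukins and chemokines are the small secreted proteins through which immune and tissue cells signal to each other, and this is an account of their transcripts and those of their receptors in pig liver. The members were chosen by name: every array probe set with 1 annotated gene symbol that begins with IL, CCL, CCR, CXCL or CXCR followed by a digit. This gave 66 probe sets for 57 genes, out of 10069 probe sets with 1 symbol for 6765 genes. A further 2 probe sets, annotated to IL3RA together with another gene, were left out. Liver was sampled from 4 Korean native pigs, here KNP, aged 7 months, and from 4 Yorkshire pigs, here YS, aged 6 months. Each animal had its own Affymetrix porcine array. RNA was taken from the end of the largest liver lobe, and the labels state that all animals were kept alike. Age went with breed, so their parts in any difference between KNP and YS cannot be told apart. Sex is not given in the sources used here.

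Interleukins bind receptors that are built from a ligand-specific chain and often a shared chain, and most of these receptors signal through Janus kinases and STAT factors, while the IL-1 family signals through MYD88 to NF-kB. Chemokines bind receptors with 7 membrane passes and guide leukocytes along a gradient; the CC and CXC classes are named for the spacing of their first cysteines. In liver, IL-6 and IL-1 from macrophages drive hepatocytes to make acute phase proteins, and chemokines from sinusoidal endothelium, stellate cells and bile ducts place lymphocytes and monocytes in the tissue.

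The intensity of a probe set is a scaled brightness and depends on its probes, so it was compared between animals and not between genes. A member is called bright here where its median over the 8 animals lay above 158, the median of that quantity over all 23999 probe sets that are not controls, and dim otherwise. Of the 66 members 26 were bright, for 23 genes, and 40 were dim. With all probe sets parted by brightness into 4 bins of equal size, 20 members lay in the dimmest, 20 in the next, 16 in the third and 10 in the brightest. Dim values sit near the floor of the array, and differences between them carry a large error: the median standard error (SE) of the difference between the breeds was 0.26 on the log2 scale for bright members and 0.45 for dim ones. Having only 4 arrays in a breed limits how precise each value can be.

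The arrays themselves differed between the breeds in 3 measures with no overlap. These measures went with breed as age did, so their parts in a difference of any member cannot be told apart from that of breed. The highest intensity on an array ran from 50730 to 60066 in KNP and from 83646 to 95919 in YS. The geometric mean of the spiked hybridization controls ran from 3433 to 4959 in KNP and from 6876 to 8955 in YS, and the ratio of actin 3' to 5' signal, which rises as RNA gets shorter, from 2.68 to 6.45 and from 8.39 to 11.8 (exact permutation p = 0.0286 for each, two-sided, the smallest that 4 against 4 allow, as for the highest intensity). The same ratio for GAPDH overlapped, from 2.30 to 3.77 and from 3.07 to 4.05 (exact permutation p = 0.314). Among the markers of cell types, 8 of 8 hepatocyte genes were bright, as the tissue label says, with a summed intensity from 283413 to 321146 in KNP and from 445026 to 480210 in YS. Their median log2 difference was −0.57, and −0.02 after quantile normalization. That step sets the brightest values of all arrays alike, so it cannot tell array scaling from a difference in the tissue. The part of array scaling in this difference was not tested. For blood and resident immune cells the summed intensities overlapped: from 26374 to 30391 against 19269 to 27480 for 8 macrophage genes, from 1764 to 2920 against 1025 to 2208 for 11 T or NK cell genes, and from 439 to 1134 against 438 to 722 for 5 neutrophil genes. Fewer cells of a type and less RNA per cell cannot be told apart in whole liver.

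No member passed the threshold between the breeds. With limma over all 23999 probe sets, of which 35 (0.146%) had an adjusted p under 0.05, 24 higher (0.1%) and 11 lower (0.0458%) in KNP, 0 of the 66 members were called. At an unadjusted p under 0.05 there were 9 members, 3 with the higher mean in KNP and 6 with the lower, which is 13.6% of them against 13.2% of all probe sets. The means of 29 members were higher and those of 37 lower in KNP. The median difference over the members, KNP minus YS on log2(intensity + 16), was −0.04, against −0.07 over all probe sets, and it turned to 0.05 after quantile normalization, which moved the median of all probe sets to −0.01. Among bright members the median was −0.01 (all bright probe sets 0.00), and among dim ones −0.09 (all dim probe sets −0.17). In 38 of the 66 the difference was smaller than its own SE. Higher in KNP among the 9 were IL11RA, CXCR4 and CXCL2, and lower were CCR7, IL1B, IL12RB2, CCL27, IL18R1 and 1 probe set of IL17B.

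**Figure D1:**
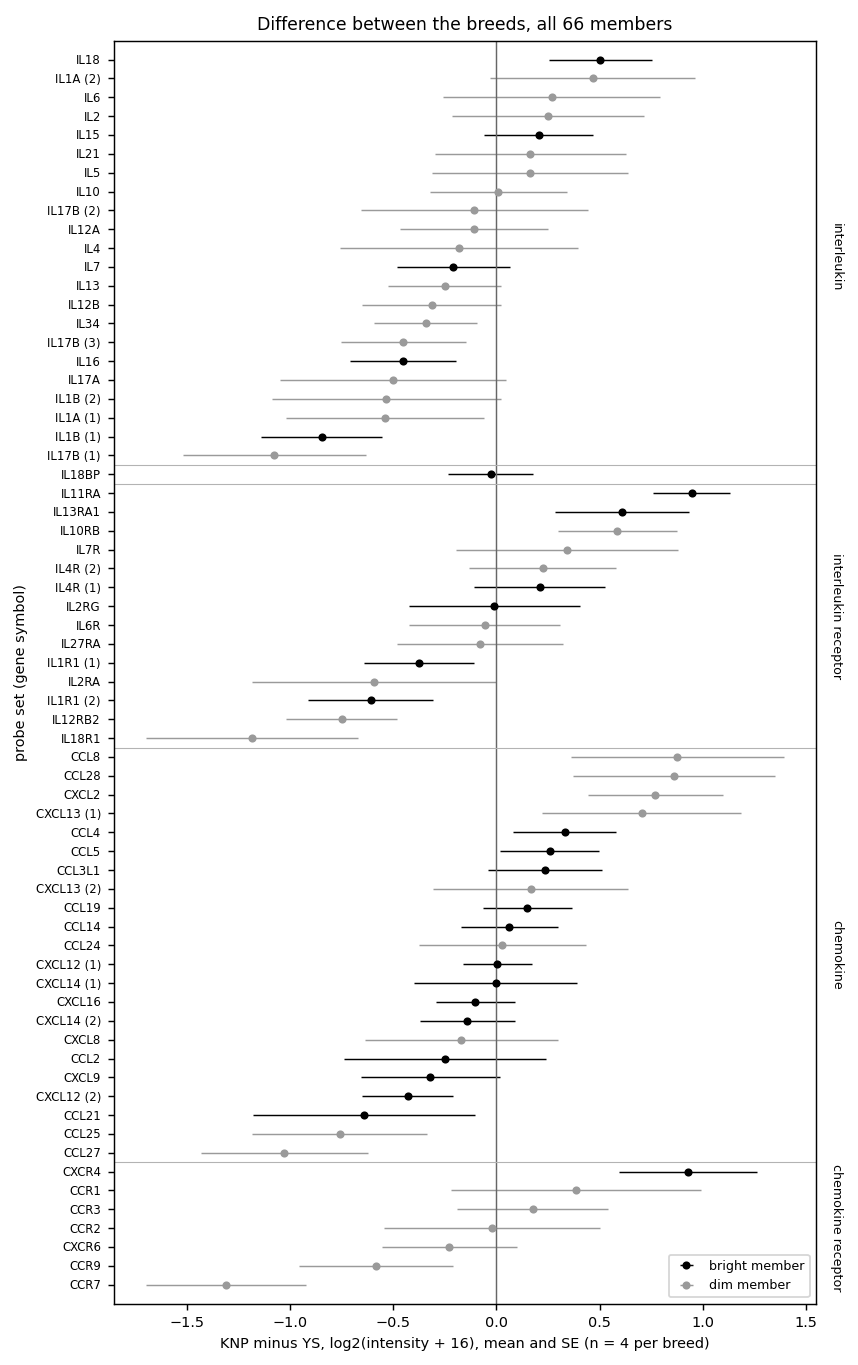
Difference between the breeds for all 66 members, grouped by role (KNP minus YS, log2 scale, with SE; n = 4 per breed; black points are bright and grey points dim members; numbers in brackets order the probe sets of a gene by brightness). IL11RA lies highest at 0.95 and CCR7 lowest at −1.31, and the grey points have the wider bars.

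IL11RA, the ligand-specific receptor chain for IL-11, which signals through the gp130 chain that IL-6 also uses, had the smallest p among the members. Its intensities were 1378, 906, 1407 and 982 in the KNP animals and 553, 658, 657 and 495 in the YS animals. Every KNP value lay above every YS value, and KNP replicates 1 and 3 were the highest. The means were 1168 ± 261 and 591 ± 80.4 (SD, n = 4 per breed), 1.93-fold apart (log2 difference 0.95, SE 0.19), with an adjusted p of 0.0753 from limma. The call rests on which probe sets enter the fit and its adjustment. With the dimmest 40% left out and limma fitted again, 149 of 14399 probe sets passed (1.03%, with 61 higher in KNP, 0.424%). IL11RA passed there with an adjusted p of 0.0467, and it was the single member to do so. Over 19 other ways of processing the values, that one included, its adjusted p ran from 0.0347 to 0.196 with 2 calls, both from leaving out dim probe sets, while its difference stayed between 0.85 and 1.06. With dim probe sets left out and each animal left out as well, 1 of 8 fits called it, the one without KNP replicate 2 (adjusted p = 0.0406), and the others gave up to 0.146.

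**Figure D2:**
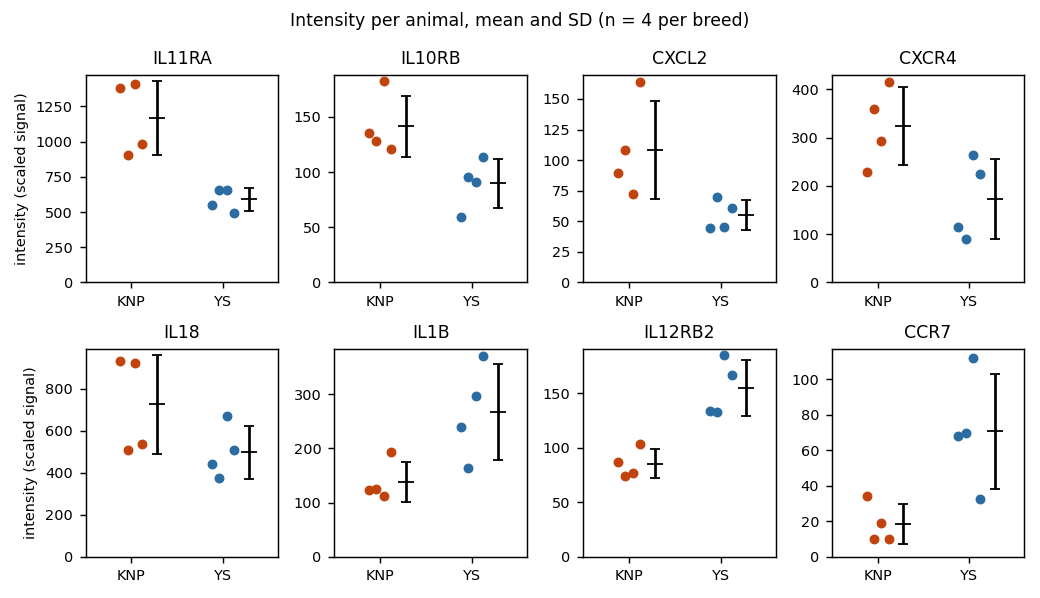
Intensity per animal for 8 members, with mean and SD beside the points (n = 4 per breed, linear axes that start at 0). The 4 KNP points of IL11RA, IL10RB and CXCL2 lie above the 4 YS points and those of IL12RB2 lie below them, while CXCR4, IL18, IL1B and CCR7 overlap.

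In 5 of the 66 members the 4 KNP values did not overlap with the 4 YS values, 3 above and 2 below, which is 7.58% against 8.31% of all probe sets (2.88% above and 5.43% below). Besides IL11RA these were all dim. IL10RB, the shared second chain of the receptors for IL-10, IL-22 and the lambda interferons, lay at 135, 128, 182 and 121 in KNP and at 59.4, 95.8, 90.8 and 113 in YS (log2 difference 0.59, SE 0.29, adjusted p = 0.414 with limma). The gap between the groups, from 113 to 121, was small beside the range within each. CXCL2, a neutrophil chemokine, lay at 89.4, 108, 72 and 164 in KNP and at 44.7, 69.6, 45.2 and 61 in YS (0.77, SE 0.33, adjusted p = 0.345 with limma). All 8 of its values lay below the medians of their arrays. IL12RB2, the signalling chain of the IL-12 receptor on T and NK cells, lay at 87.1, 73.9, 76.3 and 104 in KNP and at 134, 133, 185 and 167 in YS (−0.75, SE 0.27, adjusted p = 0.268 with limma). The fifth was the brightest of 3 probe sets of IL17B, with 7.19 to 19.8 in KNP and 24.7 to 146 in YS, where YS replicate 1 gave the 146. Its other probe sets overlapped, with differences of −0.45 and −0.11 against −1.08.

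Among the ligands of the IL-1 family, IL1B, the inflammatory cytokine that the inflammasome matures, had the smallest p. Its bright probe set read 124, 126, 112 and 194 in KNP and 239, 163, 298 and 371 in YS, with means of 139 ± 37 and 268 ± 88 (SD, n = 4 per breed), which is −0.85 on the log2 scale (SE 0.29, adjusted p = 0.25 with limma). The groups overlapped through 1 pair of animals, KNP replicate 4 at 194 and YS replicate 2 at 163. The second probe set of IL1B was dim and scattered, from 6.05 to 61.2 in KNP and from 5.42 to 63.9 in YS. The gene table lists a further copy, IL1B2, and signal from the copies cannot be told apart here. IL18, which also needs the inflammasome and which drives interferon gamma in lymphocytes, leaned the other way. It read 933, 507, 922 and 538 in KNP and 439, 376, 668 and 507 in YS (0.50, SE 0.25, adjusted p = 0.417 with limma). KNP replicates 1 and 3 lay above every YS animal and replicates 2 and 4 among them. IL18BP, the secreted protein that captures IL-18, overlapped between the breeds, from 214 to 354 in KNP and from 273 to 316 in YS (−0.03, SE 0.21). IL1A, a membrane-bound and nuclear IL-1, was dim, and its 2 probe sets differed in sign, −0.54 (SE 0.48) and 0.47 (SE 0.50).

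The receptor of these ligands, IL1R1, the chain that binds IL-1 and starts its signal, was bright and varied widely among the KNP animals. It read 4049, 2606, 7565 and 3560 in KNP and 6182, 4499, 5675 and 5094 in YS. KNP replicate 3 was the highest of all 8 animals and KNP replicate 2 the lowest, so the KNP range enclosed the YS range (log2 difference −0.37, SE 0.27, adjusted p = 0.586 with limma). A second probe set of IL1R1 showed −0.61 (SE 0.30), from 79.2 to 172 in KNP and from 138 to 255 in YS. IL18R1, the ligand-binding chain for IL-18, was dim, with 2.84 to 71 in KNP and 63.2 to 202 in YS (−1.18, SE 0.52). Without KNP replicate 2, the animal at 2.84, the difference was −0.72.

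**Figure D3:**
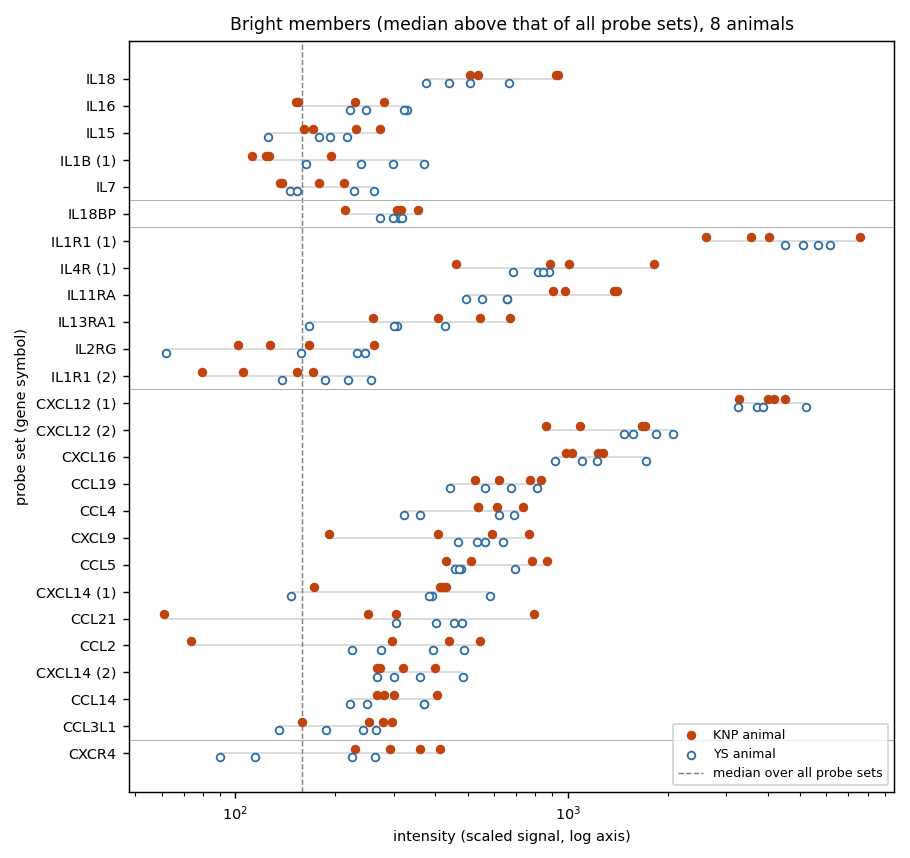
Intensity of the 26 bright members in each animal (log axis; filled points are KNP and open points YS animals, 4 each; the dashed line marks the median over all probe sets, 158). IL11RA is the member whose filled and open points separate, and CCL2, CCL21 and CXCL9 each have 1 KNP animal far to the left.

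The receptors for IL-4, IL-13 and the cytokines that share the common gamma chain gave no call either. IL4R, the chain that both IL-4 and IL-13 use, read 1010, 461, 1821 and 888 in KNP and 881, 687, 817 and 846 in YS. The YS animals lay close together and the KNP animals spread to both sides of them (difference 0.21, SE 0.32; 0.22, SE 0.36, from a second, dim probe set). IL13RA1, which pairs with IL4R on non-immune cells, read 669, 546, 407 and 259 in KNP and 307, 167, 429 and 300 in YS (0.61, SE 0.32, adjusted p = 0.453 with limma). KNP replicates 1 and 2 exceeded every YS animal, and replicates 3 and 4 did not. IL2RG, the common gamma chain itself, ran from 102 to 261 and from 61.8 to 246, a difference of −0.01 (SE 0.41). Of the cytokines that use this chain or are related to it, IL15, which maintains NK cells and is made by liver macrophages and hepatocytes, and IL7, a survival factor of lymphocytes, were bright. IL15 ran from 162 to 272 in KNP and from 126 to 217 in YS (0.21, SE 0.26), and IL7 from 137 to 212 and from 146 to 261 (−0.21, SE 0.27). IL2, IL4, IL13 and IL21, products of activated T cells, were dim, with medians over the animals of 85.9, 37.1, 5.15 and 46.6.

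The messages of most other secreted interleukins were dim in the liver of both breeds. IL6, the main inducer of the acute phase, had a median of 46.4 and ran from 22.7 to 66.4 in KNP and from 3.54 to 116 in YS. The single IL6R probe set, for the receptor chain that binds IL-6, had a median of 12.2 and ran from 2.84 to 21.5, so it gave no usable comparison (−0.06, SE 0.36). IL10, which damps macrophages, read 77 to 131 in KNP and 62.2 to 175 in YS (0.01, SE 0.33). IL12A and IL12B, which encode the chains of IL-12, and IL5 and IL17A, products of helper T cells, had medians of 34.4, 12.9, 47.5 and 18.1. IL16, a chemoattractant for CD4 cells, was bright, with 154, 229, 152 and 280 in KNP and 248, 221, 329 and 322 in YS (−0.45, SE 0.26). Its groups overlapped. Over the 22 interleukin probe sets 5 were bright, 8 had the higher mean in KNP and 14 the lower, and the median difference was −0.20. The array as a whole also leaned to lower dim values in KNP, with 36.3% of all dim probe sets higher in KNP.

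**Figure D4:**
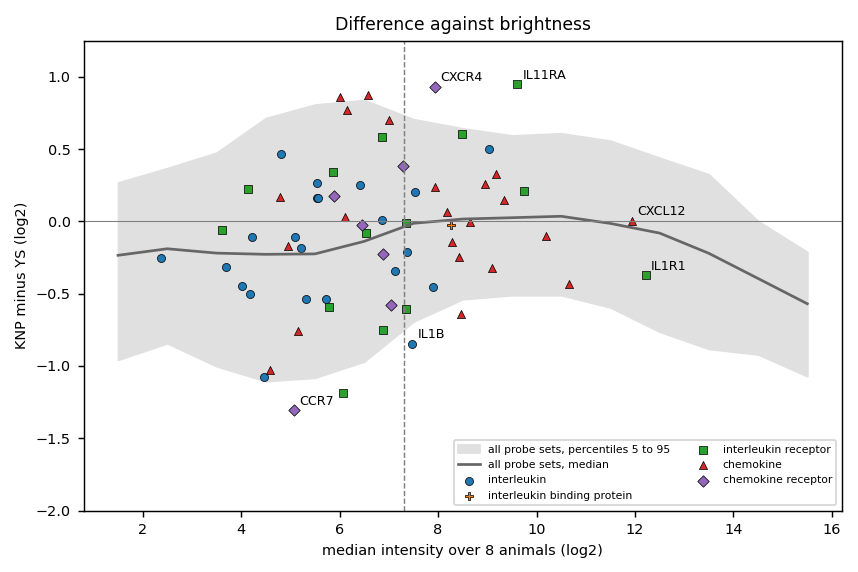
Difference between the breeds against median intensity for the 66 members by role (log2 scales; the band holds percentiles 5 to 95 and the line the median of all probe sets at that brightness; the dashed line parts dim from bright). IL11RA and CXCR4 lie above the band, and CCR7 and IL1B below it.

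Set against probe sets of like brightness, in steps of 1 on the log2 scale, 8 members lay outside percentiles 5 to 95, which is 12.1% of them where 10% of all probe sets lie outside by construction. Above were IL11RA, CXCR4, CCL8 and CCL28. Below were CCR7, IL18R1, IL1B and CCL21. The 4 above and the 4 below included chemokines, chemokine receptors and interleukin receptors on either side.

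Of the chemokine probe sets 13 of 22 were bright, and the group lay close to no difference, with a median of 0.02 and 12 higher and 10 lower in KNP. CXCL12, the constitutive chemokine of stroma and bile ducts that holds CXCR4-bearing cells in place, had 2 bright probe sets. The brighter read 4019, 4516, 3284 and 4172 in KNP and 5213, 3726, 3255 and 3884 in YS (0.00, SE 0.17). The other read 1673, 1707, 863 and 1090 in KNP and 1481, 1575, 2079 and 1850 in YS (−0.43, SE 0.22, adjusted p = 0.436 with limma). Only KNP replicates 3 and 4 parted from the rest in it, and they did not do so in the brighter probe set. CXCL16, a membrane-bound ligand of sinusoidal endothelium, ran from 988 to 1276 in KNP and from 917 to 1720 in YS (−0.10, SE 0.19). Its receptor CXCR6, carried by liver NK and NKT cells, was dim, with 75 to 132 against 68.3 to 180 (−0.23, SE 0.33). CXCL14, an epithelial chemokine, gave 0.00 (SE 0.39) and −0.14 (SE 0.23) from its 2 probe sets.

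CXCR4, the receptor of CXCL12 on leukocytes, was the one bright chemokine receptor of 7. It read 228, 359, 292 and 414 in KNP and 114, 90.2, 263 and 224 in YS, with means of 323 ± 80.6 and 173 ± 83.7 (SD, n = 4 per breed; 0.93, SE 0.33, adjusted p = 0.269 with limma). Of the KNP animals only replicate 1 fell within the YS range. CD247, a signalling chain of T and NK cell receptors, read 312 to 1306 in KNP and 109 to 304 in YS (1.44, SE 0.41, adjusted p = 0.178 with limma). Of the 11 measured T or NK cell genes 8 had the higher mean in KNP, with a median difference of 0.22 (0.37 after quantile normalization). CD2, CD8A, LCK and KLRK1 gave 0.76, 0.51, 0.47 and 0.44, CD3D, CD4 and CD3E 0.22, 0.19 and 0.17, and CD3G, CD8B and PRF1 −0.16, −0.33 and −0.59. The part of T or NK cell number in the CXCR4 values was not tested.

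CCR7, which leads naive T cells and mature dendritic cells to lymphoid tissue, had the lowest difference of all members. It read 34.5, 10.1, 18.9 and 10.1 in KNP and 68.3, 69.7, 112 and 32.8 in YS (−1.31, SE 0.39, adjusted p = 0.189 with limma). All 8 values lay below the medians of their arrays, and KNP replicate 1 and YS replicate 4 overlapped. Its ligands CCL19 and CCL21, chemokines of the portal tracts, were bright. CCL19 read 772, 832, 527 and 623 in KNP and 678, 563, 810 and 444 in YS (0.15, SE 0.22). CCL21 read 304, 794, 61 and 250 in KNP and 455, 402, 482 and 305 in YS (−0.64, SE 0.54). KNP replicate 2 was the highest and KNP replicate 3 the lowest of the 8 in CCL21, and the difference was −1.17 without replicate 2 and −0.04 without replicate 3.

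The chemokines that recruit monocytes and T cells in inflammation overlapped between the breeds throughout. CCL2, the monocyte attractant, read 441, 545, 73.7 and 297 in KNP and 224, 275, 393 and 487 in YS (−0.25, SE 0.49), and without KNP replicate 3 the difference was 0.32. CXCL9, which interferon gamma induces, read 592, 407, 192 and 764 in KNP and 564, 469, 638 and 534 in YS (−0.32, SE 0.34), and 0.05 without KNP replicate 3. In both genes KNP replicate 3 was the lowest of the 8 animals. CCL4 and CCL3L1, macrophage inflammatory proteins, gave 0.33 (SE 0.25) and 0.23 (SE 0.28), and CCL5, a chemokine of activated T cells, 0.26 (SE 0.24). CCL14, a plasma chemokine made in liver, ran from 266 to 405 and from 222 to 370 (0.06, SE 0.24). CXCL8, the main neutrophil chemokine of pigs, was dim, with 18.3 to 42 in KNP and 3.66 to 69.8 in YS (−0.17, SE 0.47; 0.03 after quantile normalization). The 5 measured neutrophil genes were all dim. S100A9 and LTF gave 1.12 and 0.88 (adjusted p of 0.286 and 0.35 with limma). S100A8, S100A12 and ELANE gave −0.17, −0.60 and −0.14 (adjusted p of 0.834, 0.561 and 0.894 with limma).

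CCL8, a monocyte chemokine, and CCL28, a mucosal one, had large differences with large errors, 0.88 (SE 0.52) and 0.86 (SE 0.49). CCL25 and CCL27, which guide T cells to gut and skin, gave −0.76 (SE 0.42) and −1.03 (SE 0.41). All 4 were dim. CCR1, CCR2 and CCR3, receptors of monocytes and granulocytes, gave 0.39, −0.02 and 0.18 with SE from 0.36 to 0.61. For CCR1 and CCR2 the same YS animals were far apart, replicate 2 at 25.2 and 20.7 and replicate 3 at 335 and 248. The remaining members, all dim, had an unadjusted p above 0.05. CCL24, an eosinophil chemokine, and CXCL13, which draws B cells, gave 0.03 and, from 2 probe sets, 0.70 and 0.17. IL2RA and IL7R, receptor chains of lymphocytes, gave −0.59 and 0.34, IL27RA −0.08, the gut-homing receptor CCR9 −0.58, and IL34, a ligand of the CSF1 receptor, −0.34.

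Single animals stood out across many members. YS replicate 2 was the lowest of the 8 animals in 8 of the 26 bright members (30.8%, against 13.2% of all bright probe sets) and the highest in 0 of them (9.47% of all). Those 8 were CCL3L1, CCL4, CCL14, CXCR4, IL13RA1, IL15, IL18 and IL2RG. KNP replicate 3 was the lowest in 6 (23.1%, against 14.5%), namely CCL2, CCL21, CXCL9, IL1B, IL16 and 1 probe set of CXCL12. It was also the highest in 4, CCL14, IL11RA, IL4R and 1 probe set of IL1R1, which is near the share of the array (15.4%, against 15.2% of all bright probe sets). YS replicate 2 also had the lowest sums of the 8 for the macrophage, T or NK cell, endothelial and stellate cell markers, at 19269, 1025, 3129 and 2784. For the B or plasma cell and neutrophil markers YS replicate 1 was the lowest, at 1166 and 438. The part of immune cell content in these members was not tested. Bright members spread more between animals of a breed than the array did: in the third of the 4 brightness bins the median SD within a breed was 0.40 on the log2 scale for members and 0.34 for all probe sets, and in the brightest bin 0.39 and 0.26.

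Several members lie side by side in the pig genome. All 57 genes were found with the same symbol in the gene table of the Sscrofa11.1 assembly, and 17 pairs of members had at most 5 protein-coding genes between them, 8 of them none. Of the 17 pairs 9 had differences of the same sign by their brightest probe sets and 8 of opposite sign. The run CCL21, CCL19, CCL27 and IL11RA showed −0.64, 0.15, −1.03 and 0.95, so that IL11RA and its direct neighbour CCL27 lay at opposite ends. The run CCL4, CCL3L1, CCL14 and CCL5 showed 0.33, 0.23, 0.06 and 0.26, all small.

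In the lists of cytokine signalling, NF-kB signalling and other cytokines 1 gene passed, TNFSF10, which is itself a ligand. Among the cell type markers RAMP2 of endothelial cells passed as well (1.24, SE 0.17, adjusted p = 0.0205 with limma). Of the 7 measured endothelial genes 4 had the higher mean in KNP, with a median difference of 0.16. PECAM1, VWF and CDH5 gave 0.16, 0.53 and 0.21, and KDR, TEK and LYVE1 −0.39, −0.14 and −0.13. Over all probe sets 13.2% had an unadjusted p under 0.05. Of 16 measured genes of cytokine signalling, the Janus kinases, STAT factors, their inhibitors and related receptors, 0 rose or fell with limma, 2 had an unadjusted p under 0.05 upward and 2 downward, and the median was 0.12. STAT6, the factor behind IL4R, read 210, 137, 107 and 228 in KNP and 310, 268, 301 and 316 in YS (−0.81, SE 0.26, adjusted p = 0.219). All KNP values of STAT6 lay below all YS values, as did those of STAT5B (−0.46, adjusted p = 0.298 with limma). Those of JAK3 lay above all YS values (0.91, adjusted p = 0.245 with limma). Over all probe sets 5.43% lay below and 2.88% above. JAK2, a kinase of many cytokine receptors, read 406, 416, 286 and 444 in KNP and 304, 241, 230 and 161 in YS (0.71, SE 0.24, adjusted p = 0.239). Of 20 genes of NF-kB, Toll-like receptor and inflammasome signalling 0 passed with limma (5 at an unadjusted p under 0.05, 3 upward and 2 downward). The smallest adjusted p with limma were those of LBP, which carries bacterial endotoxin (1.18, 0.123), and TLR1 (1.17, 0.152), both upward. MAP3K7 was also upward (0.47, adjusted p = 0.327 with limma). The 2 downward were TRAF6 and IRAK1 (−1.08 and −0.41, adjusted p of 0.284 and 0.343 with limma). Of 22 other cytokines, interferon and TNF family genes TNFSF10, the death ligand TRAIL, rose, with 904 to 1414 in KNP and 219 to 522 in YS (1.77, SE 0.25, adjusted p = 0.025), and 21 did not pass. IFNGR1, a chain of the interferon gamma receptor, came next at 0.54 (adjusted p = 0.318).

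Among 18 measured liver genes that IL-6 or IL-1 induces, 0 passed with limma over all probe sets (11 at an unadjusted p under 0.05, 3 upward and 8 downward). Over all probe sets 13.2% had an unadjusted p under 0.05. With the dimmest 40% left out 6 passed, where 1.03% of all probe sets kept did. All 18 genes were bright. LRG1, a plasma glycoprotein, and ZFP36, which destroys cytokine messages, rose there by 1.19 and 1.15 (adjusted p of 0.0401 and 0.0484), and HP, FGB, SERPINA1 and C3 fell by 0.66, 0.60, 0.53 and 0.60. After quantile normalization of all probe sets these falls were lost, with differences of −0.061, −0.028, 0.016 and 0.0045 for HP, FGB, SERPINA1 and C3, while LRG1 and ZFP36 gave 1.19 and 1.12, and 0 genes of the list passed. The largest fall of the list, that of ORM1, did not pass (−1.06, adjusted p = 0.0717 with limma and the dimmest 40% left out). ORM1 kept −0.58 after quantile normalization, while FGG, HPX and A2M gave 0.03, 0.11 and 0.07. The list had a median of −0.36, which turned to 0.09 after quantile normalization, with 8 of 18 means higher in KNP. SERPINA1 was also among the hepatocyte markers, and LBP on both this list and that of NF-kB signalling. All 75 probe sets with a median between 15 and 16 on the log2 scale, where HP, FGB, SERPINA1 and C3 lie, had a median difference of −0.57. Quantile normalization sets values of this brightness nearly alike on all arrays. The part of array scaling in these falls was not tested.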

How the data were processed

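The authors deposited 1 linear intensity for each probe set and array, scaled so that every array has the same mean between percentiles 2 and 98 (499.8). GCOS 1.3 was used, per the submitters' processing notes; the signal algorithm is not given in the sources used here. From these values, log2(intensity + 16) was fitted with limma 3.58.1 in R 4.3.3 (lmFit, eBayes with an intensity trend, two-sided), with breed as the only term, over 23999 probe sets after 124 controls were left out, with Benjamini-Hochberg adjustment and a threshold of 0.05. Array medians differed by 0.22 on this scale, so no normalization was added. Dim probe sets were kept because the members include them; 34 of the 66 members pass a filter that leaves out the dimmest 40%. Symbols come from the platform's annotation. The fit was tested on simulated data.

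Members named are those called, the 12 with the smallest p, the 15 brightest, bright ones without overlap, genes whose probe sets differ in sign, and a fixed list of major cytokines; the other members are given more briefly. Replicate numbers name different animals: deviations of same-numbered animals correlated between −0.02 and 0.03, so animals were not paired. Further gene lists were counted by the brightest probe set of a gene. The members and lists were chosen with earlier results of these data known. Alternatives were quantile normalization, cyclic loess, median centring, pseudocounts of 1 and 64, filters of 40% and 60%, no trend, array weights, a replicate block, a threshold of 0.01, averaging over the probe sets of each gene, and leaving out each animal; cyclic loess, and filtering together with leaving out an animal, were chosen after seeing the data. Sequences of the members were not used here.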

Additional observations from a re-analysis of the deposited data

Results flagged for a closer look

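In 68 groups of 4 animals, 2 for each of the 34 named probe sets, 3 held an animal far from the others by Dixon's ratio; chance flags about 1 group in 20. In CXCL14, the brighter probe set read 172 in KNP replicate 4 and 414 to 431 in the other KNP animals. In CCL5, YS replicate 3 read 697 and the other YS animals 458 to 479. In the second probe set of IL1A, YS replicate 3 read 91.5 and the other YS animals 15 to 21.7.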

How the results depend on the processing

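The number of probe sets called, 35 with all kept, was 149 and 163 with the dimmest 40% and 60% left out, 15 without the intensity trend, 19 with probe sets averaged per gene and 0 at a threshold of 0.01. With 1 animal left out it ran from 0 to 50: 0 without YS replicate 1, 12 without KNP replicate 3, 16 without YS replicate 2 and 10 without YS replicate 3 or 4. With the replicate block it was 8, with 0 members; replicate numbers name different animals and do not pair them. Members called higher in KNP numbered 1, IL11RA, with 40% and with 60% left out, and 0 under the other settings run; members called lower numbered 0 throughout. Members without overlap numbered 8 after median centring, 3 and 1 with 40% and 60% left out, and 6 to 10 with 1 animal left out. Fewer animals make it easier for the groups to part, and the filters leave out dim members. The shares of all probe sets under these settings are not given here, so these counts are no result about the members. Genes of the pathway lists called numbered 1 with all probe sets kept and 1 after quantile normalization. With 40% left out, an alternative chosen after seeing the data, they numbered 7, where 1.03% of all probe sets kept passed. The 7 included HP, FGB, SERPINA1 and C3, whose differences came near 0 after quantile normalization.

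Of 651 values of the 34 named members under alternatives, 601 kept their sign and side of the threshold and 48, from 12 probe sets, turned sign, none of them called. The 601 is no measure of stability, because some settings cannot change a difference. These are the filters, no trend, the replicate block, the threshold of 0.01, and averaging for genes with 1 probe set. After quantile normalization CXCL12 gave −0.0057, CXCL8 0.032, IL2RG 0.072 and IL6R 0.093. After median centring CXCL14 gave 0.072, IL2RG 0.067 and IL6R 0.020, and after cyclic loess CXCL8 0.033, IL2RG 0.074 and IL6R 0.14. With a pseudocount of 1 CXCL14 gave 7.2e-05, CXCL8 0.018 and IL2RG 0.0047, and with 64 IL10 gave −0.0030. With array weights CXCL12 gave −0.0092, CXCL14 0.034 and IL10 −0.0033. With probe sets averaged per gene CXCL12 gave −0.21 and the second probe set of IL1A −0.036. With 1 animal left out the ranges were −0.56 to 0.32 for CCL2, −0.089 to 0.14 for CXCL12, −0.38 to 0.30 for CXCL14, −0.23 to 0.067 for CXCL16, −0.62 to 0.093 for CXCL8, −0.58 to 0.054 for CXCL9, −0.22 to 0.21 for IL10, −0.39 to 0.19 for IL2RG, −0.11 to 0.54 for IL4R, −0.20 to 0.72 for IL6 and −0.22 to 0.11 for IL6R. The cause of these turns was not tested. With 4 animals per breed and most members dim, differences within about 1 SE of 0 have no settled sign.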
